A study of Homo sapiens with 12 samples.

Results

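The 10 genes described here encode amino acid transporters of the plasma membrane that stressed cells are known to induce, namely SLC3A2, SLC7A5, SLC7A11, SLC7A1, SLC7A3, SLC1A4, SLC1A5, SLC38A1, SLC38A2 and SLC6A9. They were named as known stress-induced transporters, with earlier results of these data known, in a table of 28278 genes. All 10 were found and had enough reads to be tested in every comparison. The cultures were motor neurons made from the wild-type human embryonic stem cell line WA09-Islet1-GFP, in which GFP reports expression of the motor neuron transcription factor Islet1. Cultures were treated for 16 hours with cis-chlordane, an organochlorine pesticide, at 10 µM by the sample labels, or with the same volume of the solvent DMSO, and were then dissociated and sorted by FACS. The study's methods give another concentration, so the dose is uncertain. The 4 groups of 3 libraries are control GFP-positive, treated GFP-positive, control GFP-negative and treated GFP-negative cells. All groups come from the 1 line, were differentiated by the same protocol, and share the plating and the recovery in complete medium before treatment. The labels of every library, GFP-negative ones included, name the cell type as motor neuron.

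Cells take up most amino acids through exchangers and sodium-coupled carriers of a few solute carrier families. When translation stress or a shortage of amino acids leads to phosphorylation of eIF2alpha, general protein synthesis falls while the transcription factor ATF4 is made, and ATF4 together with C/EBP partners is known to raise transcription of many of these transporters. In neurons the same carriers supply leucine for growth signalling, arginine, glutamine as a precursor of glutamate, glycine, and cystine for glutathione.

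The libraries held 23414935 to 38347050 counts, and the lowest count of a member other than SLC7A11 in any library was 124. Levels are given as CPM, that is counts scaled to a common library total, after TMM scaling, which adjusts that total for genes that take up a large part of a library. The motor neuron label was compared with 9 marker genes, all of which were detected in every group. Detection in every group is no check of the label. ISL1 encodes Islet1, whose reporter was sorted on, so its difference between the fractions follows from the sort. ISL1 was at 65.7 ± 3.12 CPM (SD, n = 3) in control GFP-positive and 2.57 ± 0.203 CPM in control GFP-negative cells, and at 12.0 ± 3.71 and 0.548 ± 0.152 CPM after treatment. The summed level of the 9 markers ran from 1766 to 1968 CPM in control and from 521 to 709.8 CPM in treated GFP-positive libraries, and from 334 to 377 and from 117 to 156 CPM in GFP-negative libraries. In control cells 7 of the 9, ISL1 among them, were called higher in GFP-positive than in GFP-negative cells. LHX3 was called lower, at 43.1% of the GFP-negative level. After treatment 5, again with ISL1, were called higher and LHX3 lower. ISL2, MNX1 and LHX4 were at 87.2%, 93.9% and 82.5% of the GFP-negative level. Treated against control, 7 of the 9 were called lower in GFP-positive and 6 in GFP-negative cells, 0 were called higher, and their part in the results on the transporters was not tested. In bulk RNA, fewer cells of a type and less RNA per cell cannot be told apart.

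Promoter sequences are shown because the transporters rose together, as described below, and because the C/EBP-ATF response element through which ATF4 is known to act has a recognisable core, TGATGNAA. RefSeq windows from 250 bases before to 50 bases after the annotated start (GRCh38.p14) were at hand for 8 of the 10 genes, in 14 windows. SLC7A3 and SLC7A11 were not in the table. The core, searched on both strands, was found in 5 of these 14 windows, each of a different gene, and in 3.62% of all 35116 RefSeq windows of the same length. The 5 windows follow, with the core or its reverse complement in capitals.

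SLC7A1, minus strand, chr13:29595639-29595938:
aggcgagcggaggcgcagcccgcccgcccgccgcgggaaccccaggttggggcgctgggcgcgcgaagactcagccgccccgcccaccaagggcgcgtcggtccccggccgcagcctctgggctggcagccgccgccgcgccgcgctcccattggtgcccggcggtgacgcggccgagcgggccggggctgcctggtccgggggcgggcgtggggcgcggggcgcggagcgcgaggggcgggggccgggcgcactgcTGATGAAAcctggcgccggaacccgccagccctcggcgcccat
SLC3A2, plus strand, chr11:62881449-62881748:
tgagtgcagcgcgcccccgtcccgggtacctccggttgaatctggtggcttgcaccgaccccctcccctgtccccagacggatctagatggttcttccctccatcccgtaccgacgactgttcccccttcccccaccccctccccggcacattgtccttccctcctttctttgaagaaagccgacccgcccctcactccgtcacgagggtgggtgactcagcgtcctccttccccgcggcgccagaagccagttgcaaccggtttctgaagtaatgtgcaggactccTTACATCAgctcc
SLC1A4, plus strand, chr2:64989149-64989448:
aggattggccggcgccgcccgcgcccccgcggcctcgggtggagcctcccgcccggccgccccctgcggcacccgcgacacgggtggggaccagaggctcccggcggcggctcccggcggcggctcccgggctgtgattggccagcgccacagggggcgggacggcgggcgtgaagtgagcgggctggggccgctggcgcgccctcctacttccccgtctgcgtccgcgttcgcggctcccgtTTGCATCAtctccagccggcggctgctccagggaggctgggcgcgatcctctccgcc
SLC1A5, minus strand, chr19:46784765-46785064:
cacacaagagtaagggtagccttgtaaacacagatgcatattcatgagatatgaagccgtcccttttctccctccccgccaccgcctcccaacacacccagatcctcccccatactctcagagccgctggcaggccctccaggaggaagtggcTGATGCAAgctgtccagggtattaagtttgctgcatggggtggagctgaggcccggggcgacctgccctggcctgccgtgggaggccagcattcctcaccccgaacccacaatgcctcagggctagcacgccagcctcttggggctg
SLC38A1, minus strand, chr12:46266467-46266766:
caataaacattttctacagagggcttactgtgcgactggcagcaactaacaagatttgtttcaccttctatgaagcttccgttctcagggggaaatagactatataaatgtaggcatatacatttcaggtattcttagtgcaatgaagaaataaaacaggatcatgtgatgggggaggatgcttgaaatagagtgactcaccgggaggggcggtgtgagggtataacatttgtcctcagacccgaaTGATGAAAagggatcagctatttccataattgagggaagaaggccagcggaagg

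The first printed base of the core lay 8 bases after the start in SLC7A1 and 38 bases after it in SLC3A2. It lay 7 bases before the start in SLC1A4, 97 bases before it in SLC1A5 and 4 bases before it in SLC38A1. In SLC1A4 and SLC38A1 the core thus runs across the start. SLC3A2, SLC1A4, SLC1A5 and SLC38A1 have other annotated starts whose windows lacked these letters. The single windows of SLC7A5, SLC38A2 and SLC6A9 lacked them too. A core of the antioxidant response element, TGACNNNGC, was found on either strand in windows of SLC7A1, SLC7A5, SLC3A2 and SLC1A5, that is in 4 of 14 windows against 13.3% of all windows. The E-box CACGTG, which reads the same on both strands, was found in windows of SLC7A5 and SLC1A5, in 2 of 14 windows against 7.26%. The ER stress response element, CCAAT and CCACG with a fixed spacer, was found in 0 of 14 windows against 0.0769%. The searched motifs can overlap, and a match is a description of letters and not of a binding site.

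In GFP-positive cells, all 10 transporter genes were significantly upregulated by treatment, from 2.24-fold for SLC38A2 to 49.6-fold for SLC7A11. A gene was called upregulated at an adjusted p under 0.05 in edgeR's quasi-likelihood test, adjusted over all genes by Benjamini-Hochberg, and a fold change of at least 2. Of the 15333 genes tested, 12.8% were called higher by the same rule. The treated libraries lay above all control libraries for 10 of 10 genes, as they did for 26.9% of all genes tested. The median log2 fold change of the 10 genes was 2.59, against 0.03 over all genes. Together the 10 genes took 0.117% ± 0.00638 (SD, n = 3) of all counts in control and 0.686% ± 0.0503 in treated GFP-positive libraries.

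In GFP-negative cells the same 10 genes were called upregulated, against 8.59% of 15513 genes, and the treated libraries lay above the control libraries for 10 of 10 genes against 24.0% of all genes. The median log2 fold change was 2.13, against -0.01 over all genes. The share of all counts taken by the 10 genes was 0.140% ± 0.00566 in control and 0.802% ± 0.0336 in treated GFP-negative libraries. These genes were picked as known stress-induced transporters, so their shared direction is read only against those shares of all genes.

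**Figure D1:**
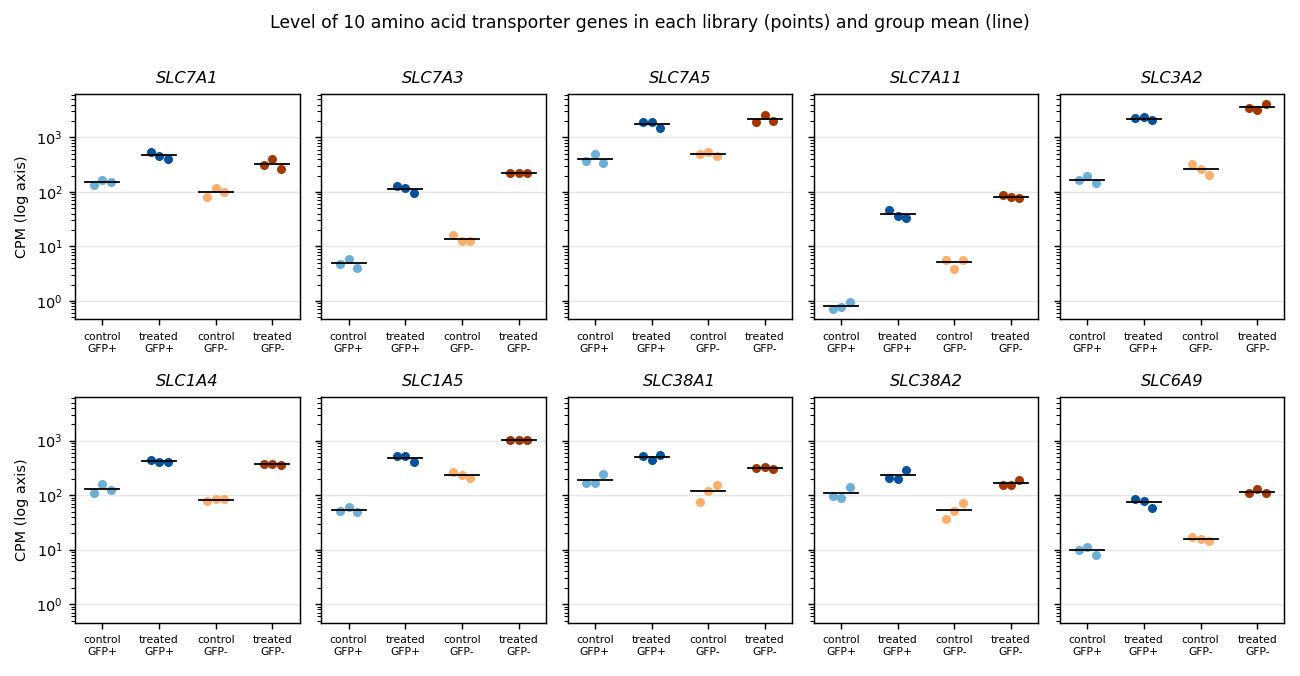
Level of each transporter gene in CPM (vertical log axis) in the 12 libraries, grouped by treatment and sort fraction; points are libraries and lines are group means of 3. In each panel the treated libraries sit above the control libraries of the same fraction, and SLC7A11 goes from 0.708 to 0.96 CPM in control to 33.3 to 46.9 CPM in treated GFP-positive cells.

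SLC3A2 encodes the heavy chain that carries several SLC7 light chains to the cell surface. Its level was 168, 192 and 147 CPM in the control and 2244, 2329 and 2077 CPM in the treated GFP-positive libraries. In GFP-negative cells it was 331, 264 and 208 CPM in control and 3510, 3161 and 4151 CPM in treated libraries. Every treated library was far above every control library of its fraction. The log2 fold change was 3.78 (SE 0.18, adjusted p = 7.2e-19) in GFP-positive and 3.73 (SE 0.21, adjusted p = 8.7e-06) in GFP-negative cells by edgeR.

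SLC7A5, the light chain that pairs with SLC3A2 to exchange large neutral amino acids such as leucine, was at 374, 505 and 339 CPM in control and 1885, 1904 and 1521 CPM in treated GFP-positive libraries. In GFP-negative libraries it was at 507, 534 and 463 CPM in control and 1959, 2609 and 1979 CPM after treatment. The groups did not overlap in either fraction. It rose by 2.19 on the log2 scale (SE 0.17) in GFP-positive and by 2.10 (SE 0.16) in GFP-negative cells. A near copy, SLC7A5P2, had at most 145 counts in a library, and reads split between the copies cannot be told apart.

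SLC7A11, the light chain of the cystine and glutamate exchanger, which brings in cystine for glutathione synthesis, showed the largest response of the 10 in GFP-positive cells. It was at 0.708, 0.782 and 0.96 CPM, that is 19 to 30 counts, in control GFP-positive libraries, and at 46.9, 36.7 and 33.3 CPM in treated ones. In GFP-negative libraries it was at 5.75, 3.9 and 5.75 CPM in control and 87.0, 82.1 and 76.5 CPM after treatment. Control GFP-positive cells thus had the lowest and treated GFP-negative cells the highest level of this gene, with no overlap between any pair of groups. The log2 fold change was 5.63 (SE 0.25, adjusted p = 3.2e-19) in GFP-positive and 3.98 (SE 0.21, adjusted p = 8.2e-06) in GFP-negative cells. With the replicate block and the trend with GC content removed, the value in GFP-positive cells was 5.02. SLC7A11-AS1, on the opposite strand, had at most 2 counts in any library.

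**Figure D2:**
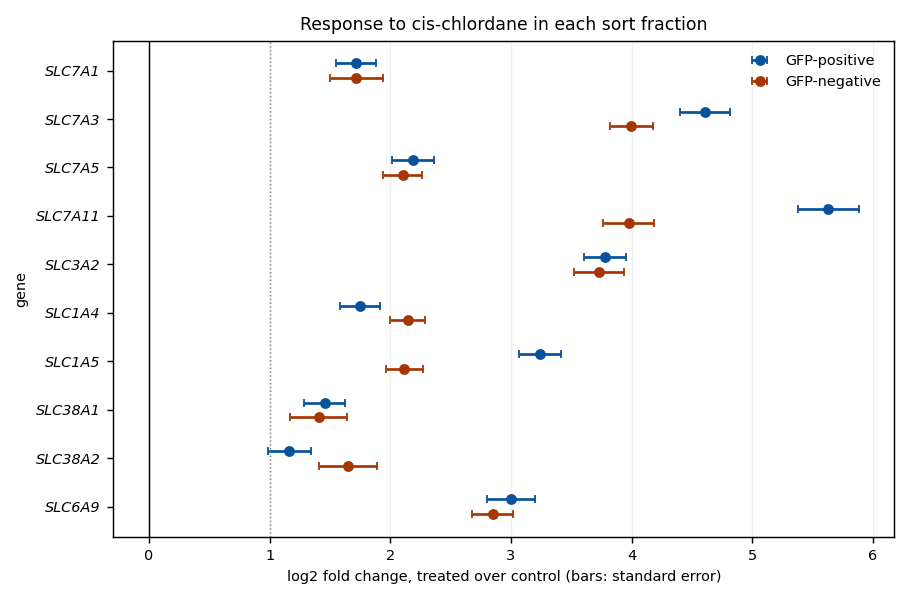
Log2 fold change of treated over control (horizontal axis) for each transporter gene in GFP-positive and GFP-negative cells, with bars for the standard error and a dotted line at a 2-fold rise. All 20 values lie to the right of that line, from 1.16 for SLC38A2 to 5.63 for SLC7A11, both in GFP-positive cells.

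SLC7A1 and SLC7A3 both carry arginine and lysine. SLC7A1 was at 132, 165 and 151 CPM in control and 539, 466 and 403 CPM in treated GFP-positive libraries, and at 79.1, 117 and 99.9 CPM in control and 317, 410.4 and 260.0 CPM in treated GFP-negative libraries. Its log2 fold change was 1.72 in both fractions, with an SE of 0.16 in GFP-positive and 0.22 in GFP-negative cells. SLC7A3 was at 4.85, 5.85 and 3.97 CPM in control GFP-positive and 16.1, 12.4 and 12.4 CPM in control GFP-negative libraries. It reached 127, 120.1 and 96.0 CPM in treated GFP-positive and 219.6, 220.4 and 224 CPM in treated GFP-negative libraries. Its treated GFP-negative libraries all lay above all treated GFP-positive ones. SLC7A3 rose by 4.61 (SE 0.21, adjusted p = 3.2e-19) and 4.0 (SE 0.18, adjusted p = 4.7e-06) on the log2 scale.

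SLC1A4 and SLC1A5 exchange small neutral amino acids, with serine and alanine among the substrates of the first and glutamine among those of the second. SLC1A4 was at 108, 157 and 125 CPM in control and 438, 412 and 402 CPM in treated GFP-positive libraries. In GFP-negative libraries it was at 77.6, 86.1 and 84.1 CPM in control and 373, 375 and 364 CPM after treatment. Its log2 fold changes were 1.75 (SE 0.17) and 2.15 (SE 0.14). SLC1A5 was at 50.2, 60.4 and 48.1 CPM in control and 512, 520.2 and 400.5 CPM in treated GFP-positive libraries. In GFP-negative libraries SLC1A5 was at 263, 236 and 208 CPM in control and 1044, 1036 and 1034 CPM after treatment. It rose by 3.24 (SE 0.18, adjusted p = 4.8e-17) in GFP-positive and by 2.12 (SE 0.15, adjusted p = 2.3e-05) in GFP-negative cells on the log2 scale. The treated GFP-positive libraries did not reach the level of the treated GFP-negative ones for SLC1A5, whereas for SLC1A4 they lay above them.

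SLC38A1 and SLC38A2, sodium-coupled carriers of glutamine and other small neutral amino acids, had the smallest responses in GFP-positive cells. SLC38A1 was at 167, 170.1 and 241 CPM in control and 524, 439.8 and 551 CPM in treated GFP-positive libraries, and at 75.8, 120.1 and 154 CPM in control and 309, 330.3 and 302 CPM in treated GFP-negative libraries. Its log2 fold changes were 1.46 (SE 0.17) and 1.41 (SE 0.24, adjusted p = 0.0019). SLC38A2 was at 95.6, 88.6 and 141 CPM in control and 209.7, 196 and 289 CPM in treated GFP-positive libraries. In GFP-negative libraries SLC38A2 was at 35.7, 51.1 and 70.9 CPM in control and 154, 155 and 193 CPM after treatment. Its rise was 1.16 (SE 0.18, adjusted p = 1.8e-06) in GFP-positive and 1.65 (SE 0.24) in GFP-negative cells on the log2 scale.

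The call of SLC38A2 in GFP-positive cells is the least settled of the 20. Its rise fell below 2-fold when the trend with GC content was removed (log2 fold change 0.65) and without treated GFP-positive replicate 3 (0.97), and a test against a minimum of 2-fold (glmTreat) gave an adjusted p of 0.39. The same test gave SLC38A1 in GFP-negative cells an adjusted p of 0.18. Of the 10 genes, SLC7A11 and SLC38A2 had the lowest GC content over their exons, 35.4% and 37.6%.

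SLC6A9 takes up glycine, in the nervous system also around inhibitory synapses. It was at 9.77, 11.1 and 8.09 CPM in control and 85.2, 78.2 and 57.8 CPM in treated GFP-positive libraries. In GFP-negative libraries it was at 17.2, 15.9 and 14.3 CPM in control and 109, 127 and 109.9 CPM after treatment. The groups were well apart in both fractions, with log2 fold changes of 3.00 (SE 0.20) and 2.85 (SE 0.17). CCDC24 shares 413 exon bases with SLC6A9 on the opposite strand and had at most 282 counts, against 253 to 3496 for SLC6A9, and the strand setting used in counting is not given in the sources used here.

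To compare levels between genes, CPM was divided by the length of each gene's exons in kilobases. In control GFP-positive cells SLC7A5 was the most abundant per kilobase, at 85.3 ± 18.4 CPM per kb (SD, n = 3), followed by SLC3A2 at 26.5 ± 3.51. SLC7A1, SLC38A1, SLC1A4, SLC38A2 and SLC1A5 lay between 19.5 and 15.9 CPM per kb and did not differ from their neighbours in this order beyond the spread of the libraries. SLC7A3 at 2.16 ± 0.416 and SLC6A9 at 1.84 ± 0.286 also overlapped, and SLC7A11 at 0.0847 ± 0.0134 CPM per kb came last. After treatment SLC7A5 (372 ± 45.3 CPM per kb) and SLC3A2 (347 ± 20.01) overlapped, SLC1A5 had moved from the seventh place to the third at 143 ± 20.05, and SLC7A11 was still last at 4.04 ± 0.731. In control GFP-negative cells SLC1A5 stood second at 70.8 ± 8.30 CPM per kb, behind SLC7A5 at 105 ± 7.54 and ahead of SLC3A2 at 41.9 ± 9.70. In treated GFP-negative cells SLC3A2 (564 ± 78.6) and SLC7A5 (458 ± 77.6) overlapped at the top, followed by SLC1A5 at 312 ± 1.58 and SLC7A3 at 97.6 ± 1.08. The order at the top depends on the length used. With the longest transcripts in place of all exons, SLC3A2 was first without overlap in treated cells, at 779.7 ± 45.0 CPM per kb against 389 ± 47.4 for SLC7A5 in GFP-positive and 1269 ± 177 against 479 ± 81.2 in GFP-negative cells. In control GFP-negative cells it then stood second at 94.2 ± 21.8, overlapping both SLC7A5 at 110.01 ± 7.89 and SLC1A5 at 81.8 ± 9.60.

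The ratio of each light chain to the shared heavy chain was taken within each library, where scaling between libraries plays no part. SLC7A5 to SLC3A2 was 2.99, 3.53 and 3.09 per kb of exon in control and 1.13, 1.097 and 0.982 in treated GFP-positive libraries, which is 2.99-fold lower on average. In GFP-negative libraries it was 2.05, 2.71 and 2.99 in control and 0.749, 1.11 and 0.640 after treatment, 3.15-fold lower. The groups did not overlap in either fraction, and the exact two-sided permutation test gave p = 0.1, the smallest value that 3 against 3 libraries allow. The heavy chain transcript thus rose more than the light chain SLC7A5 in both fractions. The level of this ratio depends on the length used for SLC3A2, whose exons span 6392 bases in all but 2843 in the longest transcript. With the longest transcripts, the mean ratio was 1.49 in control and 0.497 in treated GFP-positive cells, while the fold change of the ratio does not depend on length.

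SLC7A11 to SLC3A2 went the other way in GFP-positive cells. The ratio was 0.00280, 0.00270 and 0.00432 in control and 0.0138, 0.0105 and 0.0106 in treated GFP-positive libraries, 3.61-fold higher with no overlap (exact permutation p = 0.1). In GFP-negative libraries the ratio was 0.0115, 0.00979 and 0.0184 in control and 0.0164, 0.0172 and 0.0122 after treatment, and the groups overlapped (1.19-fold, exact permutation p = 0.6). SLC38A1 to SLC38A2 changed by 1.23-fold in GFP-positive and 0.851-fold in GFP-negative cells, with overlap and an exact permutation p of 0.2 in both.

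**Figure D3:**
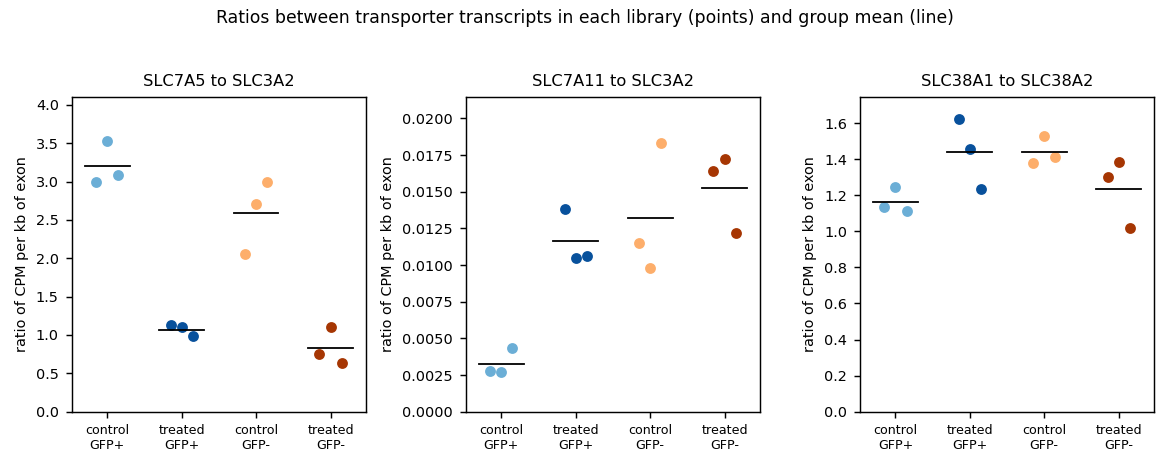
Ratio of CPM per kb of exon between transporter transcripts within each library (vertical axes from 0), with points for libraries and lines for means of 3. SLC7A5 to SLC3A2 falls from means of 3.20 and 2.58 to 1.07 and 0.832 with treatment, SLC7A11 to SLC3A2 is lowest in control GFP-positive cells, and SLC38A1 to SLC38A2 overlaps between treatments.

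In control cells 3 of the 10 transporters were called different between the sort fractions. SLC7A11 (log2 fold change -2.75, SE 0.32, adjusted p = 9.4e-05), SLC1A5 (-2.26, SE 0.15, adjusted p = 3.2e-06) and SLC7A3 (-1.58, SE 0.23, adjusted p = 0.00041) were called lower in GFP-positive than in GFP-negative cells by edgeR. Of all 15404 genes, 15.3% were called lower and 7.47% higher. No transporter was called higher, and the values of the other 7 ran from -0.81 for SLC6A9 to 0.93 for SLC38A2, short of a 2-fold difference. Of those 7, SLC3A2 (adjusted p = 0.0072), SLC6A9 (0.008), SLC38A2 (0.019), SLC1A4 (0.021) and SLC7A1 (0.04) had an adjusted p under 0.05 in edgeR's test. By that rule alone, without a minimum fold change, 6192 of all 15404 genes passed. SLC38A2 passed 2-fold in a fit of all 12 libraries (1.05) and when control GFP-negative replicate 3 (1.24), control GFP-positive replicate 1 (1.02) or control GFP-positive replicate 2 (1.09) was left out.

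In treated cells SLC1A5 (-1.098, SE 0.14, adjusted p = 5.3e-05) and SLC7A11 (-1.05, SE 0.17, adjusted p = 0.00024) were called lower in GFP-positive cells by edgeR, against 13.7% of 15416 genes called lower and 10.0% called higher. SLC7A3, at -0.93 (SE 0.15), fell short of 2-fold but passed it without treated GFP-positive replicate 1 (-1.04). Both calls lie close to 2-fold. With library size alone the values were -0.93 for SLC1A5 and -0.88 for SLC7A11, SLC1A5 was at -0.75 with the GC trend removed, SLC7A11 was at -0.97 without treated GFP-positive replicate 3, and glmTreat called neither. SLC7A1, SLC1A4, SLC38A1 and SLC38A2 had values above 0, from 0.19 to 0.71, in treated cells. SLC3A2 was at -0.68 and SLC6A9 at -0.63. Short of 2-fold, edgeR's test gave an adjusted p under 0.05 for SLC7A3 (0.00022), SLC38A1 (0.0013) and SLC3A2 (0.0015). The same held for SLC6A9 (0.0082), SLC38A2 (0.028) and SLC7A1 (0.029). By that rule alone, without a minimum fold change, 7678 of all 15416 genes passed.

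**Figure D4:**
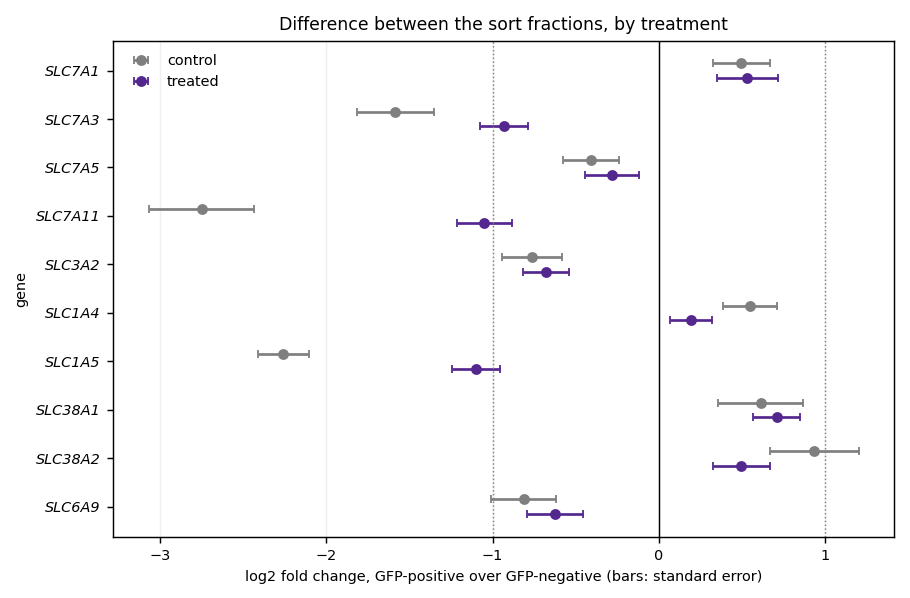
Log2 fold change of GFP-positive over GFP-negative cells (horizontal axis) for each transporter gene in control and treated cells, with bars for the standard error and dotted lines at 2-fold. SLC7A11 and SLC1A5 move from -2.75 and -2.26 in control cells to -1.05 and -1.098 in treated cells, and SLC7A3 from -1.58 to -0.93.

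Whether the response to treatment itself differed between the fractions was tested as the difference between the 2 log2 fold changes, fitted over all 12 libraries (an interaction term). SLC7A11 rose 2.97-fold more in GFP-positive than in GFP-negative cells (log2 difference 1.57, SE 0.29, adjusted p = 0.012), and SLC1A5 2.05-fold more (1.04, SE 0.21, adjusted p = 0.017), by edgeR at an adjusted p under 0.05. Of the 16226 genes tested, 2.19% were called in either direction and 0.968% as higher in this sense. SLC7A3 had a difference of 0.53 (SE 0.24, adjusted p = 0.29), SLC1A4 of -0.48 (SE 0.20, adjusted p = 0.24) and SLC38A2 of -0.58 (SE 0.34, adjusted p = 0.42), and those of the other 5 lay between -0.09 and 0.06. With SEs of 0.23 to 0.30, these 5 values do not show that the response was equal.

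Both calls were lost when certain single libraries were left out, with adjusted p just above 0.05. The log2 differences in those fits changed little. SLC7A11 had an adjusted p of 0.051 without control GFP-positive replicate 2 (log2 difference 1.56). SLC1A5 had an adjusted p of 0.053, 0.050 and 0.056 without control GFP-positive replicate 1 (1.00), control GFP-positive replicate 3 (0.97) and treated GFP-negative replicate 1 (1.04). Libraries of both fractions with the same treatment and number were taken as sorts of the same culture. With this pairing as a block the interaction test called 1264 genes instead of 355, the members SLC7A11 and SLC1A5 among them. Pairing together with removal of the GC trend added SLC38A2 as lower (-0.77, adjusted p = 0.011).

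The 3 transporters that were lower in control GFP-positive cells were lower together with markers of other cells. Neuron markers were present in both fractions. Summed, 8 of these were at 14658.5 to 18284.6 CPM in control GFP-positive and 7018 to 7779 CPM in control GFP-negative libraries. After treatment their sum was 7097 to 9139 and 4293 to 5088 CPM. TUBB3 was the largest part of these sums, with means of 9508 CPM in control and 3703 CPM in treated GFP-positive cells. Treated against control, 3 of the 8 were called lower and 0 higher in GFP-positive cells. There SNAP25 (99.5 to 188 CPM) and SYT1 (175 to 317 CPM) rose short of 2-fold. In GFP-negative cells ELAVL4 was called lower and SYT1 higher. The summed level of 6 dividing cell markers was 64.2 to 96.2 CPM in control GFP-positive and 529 to 664 CPM in control GFP-negative libraries, and 33.4 to 38.003 and 161 to 217 CPM after treatment. That of 10 neural progenitor or radial glia markers was 2895 to 3262 and 6068 to 8067 CPM in control and 2352 to 3165 and 7284 to 8330 CPM in treated libraries, and that of 8 mesenchymal markers was 261 to 326 and 761 to 886 CPM in control and 50.5 to 82.0 and 468 to 761 CPM in treated libraries. Among the mesenchymal markers, COL1A1 had means of 89.3 CPM in control GFP-positive and 598 CPM in control GFP-negative cells. COL1A2 was nearly equal there, at 185 and 193 CPM. VIM, one of the progenitor or radial glia markers, had a mean of 3861 CPM in control and 6424 CPM in treated GFP-negative cells, while 5 of the 9 tested markers of that list were called lower there and 0 higher. HES5 and LUM were at 0 in all treated GFP-positive libraries, and no marker was at 0 throughout another group. Their part in the differences between the fractions was not tested.

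The level in GFP-positive as a percentage of that in GFP-negative cells puts both on 1 scale. SLC7A11 went from 15.9% in control to 47.6% in treated cells, SLC1A5 from 22.4% to 46.0%, and SLC7A3 from 35.8% to 51.6%. Over the 9 progenitor or radial glia markers with at least 1 CPM in GFP-negative cells, the median was 17.4% in control and 20.9% in treated cells, with a range of 7.04% to 56.9% in control and 5.72% to 94.0% after treatment. Over the 6 dividing cell markers the median was 11.9% in control and 19.96% in treated cells, with ranges of 8.28% to 15.7% and 7.02% to 26.1%. For the mesenchymal markers with at least 1 CPM in GFP-negative cells, 5 in control and 4 in treated cells, the medians were 16.0% and 14.0%. Their ranges were 12.7% to 96.1% and 8.06% to 22.5%. For 10 of 10 transporters, every treated GFP-positive library lay above every control GFP-negative library. The share of all genes for which this held was not counted, so nothing is read from it.

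Other amino acid transporters of the same families were also examined. Of 40 relatives, 24 had enough reads to be tested in GFP-positive cells, 9 were called higher and 0 lower, and their median log2 fold change was 0.61. In GFP-negative cells 6 of 27 were called higher and 1 lower, with a median of 0.14. Over all genes 12.8% and 8.59% were called higher in the 2 fractions. SLC6A15, a carrier of branched-chain amino acids and proline in neurons, went from 27.3 ± 2.68 to 119.7 ± 10.7 CPM (SD, n = 3) in GFP-positive cells (log2 fold change 2.20) and from 10.9 ± 1.23 to 53.9 ± 4.90 CPM in GFP-negative cells (2.28). SLC7A14, a lysosomal member, rose by 1.82 in GFP-positive cells, and its value in GFP-negative cells was 0.94, under 2-fold. SLC7A4 rose by 2.23 in GFP-positive cells, from a mean of only 0.388 CPM. SLC6A17, a neuronal vesicle carrier, rose by 1.02 and 1.64. SLC38A9, the lysosomal arginine sensor of mTORC1, rose by 1.02 and 1.47 in GFP-positive and GFP-negative cells.

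Among the other light chains that pair with SLC3A2, none was called in either fraction. SLC7A6 was at 69.0 ± 8.79 and 98.0 ± 21.2 CPM in control and treated GFP-positive cells (log2 fold change 0.57), SLC7A8 at 13.5 ± 1.62 and 15.7 ± 2.28 CPM (0.28), and SLC7A7 and SLC7A10 were below the filter at a mean of 0.266 CPM or less. In GFP-negative cells the log2 fold changes were 0.10 for SLC7A6, 0.54 for SLC7A8 and -0.09 for SLC7A10. SLC7A7 was at 4.07 CPM in replicate 3 and at 0.263 and 0.117 CPM in the other control GFP-negative libraries, with a mean of 0.574 CPM after treatment. SLC3A1, the other heavy chain, had at most a mean of 0.180 CPM in any group. SLC1A3, a glutamate transporter of glia and a progenitor marker here, fell by 1.79 on the log2 scale in GFP-negative cells, from 17.7 ± 1.59 to 5.17 ± 1.49 CPM, and was at 1.92 and 0.976 CPM in GFP-positive cells, where it was not called.

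**Figure D5:**
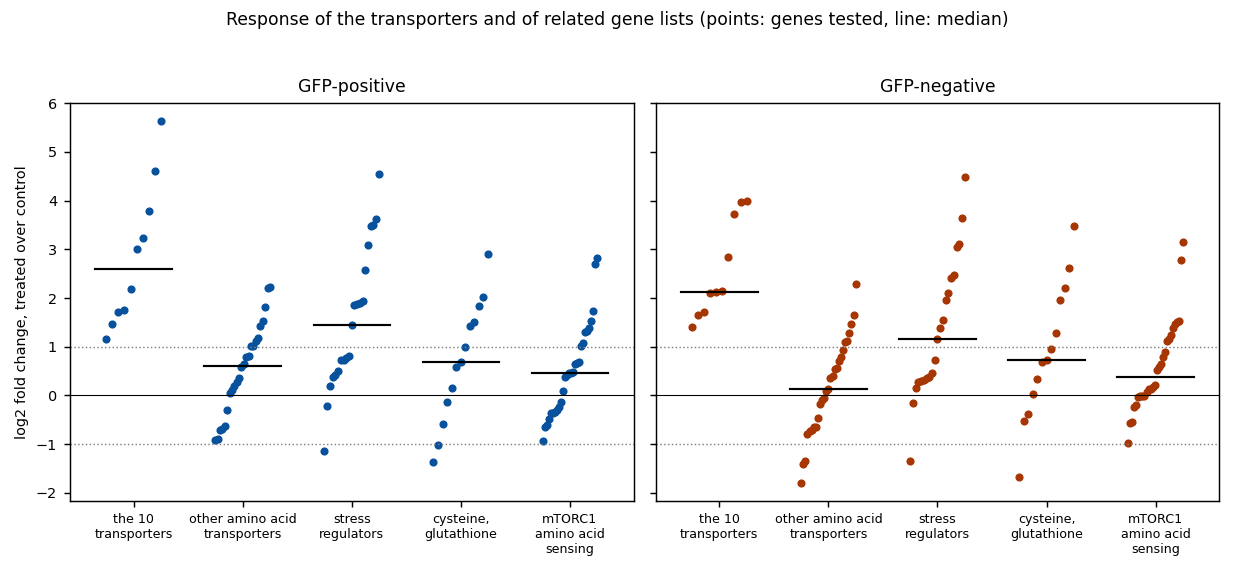
Log2 fold change of treated over control (vertical axis) for the 10 transporters and for 4 gene lists in each sort fraction, with points for genes tested, lines for medians and dotted lines at 2-fold. The medians of the 10 transporters are 2.59 and 2.13, and those of the other amino acid transporters 0.61 and 0.14.

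Of 21 tested genes on a list of stress response regulators, 11 were called higher and 1, MYCN, lower in each fraction, beside 12.8% and 8.59% of all genes called higher. The medians were 1.44 in GFP-positive and 1.17 in GFP-negative cells. ATF4 was at 399 ± 53.7 and 1396 ± 146 CPM in control and treated GFP-positive cells and at 437 ± 172 and 1729 ± 173 CPM in GFP-negative cells, log2 fold changes of 1.87 and 1.96. Its known partners CEBPB and CEBPG rose by 3.49 and 1.86 in GFP-positive and by 3.11 and 1.38 in GFP-negative cells. DDIT3, another partner, rose by 3.62 and 3.05, ATF3 by 4.54 and 3.64, and TRIB3, a target that restrains ATF4, by 3.48 and 4.49. NFE2L2, which acts through the antioxidant response element, rose by 1.90 and 1.54.

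Genes that use or sense the transported amino acids were mixed. Of 13 genes of cysteine and glutathione metabolism tested, 6 were called higher and 2 lower in GFP-positive cells and 5 higher and 1 lower in GFP-negative cells. CHAC1, which degrades glutathione, rose by 2.90 and 3.48, CTH, which makes cysteine, by 2.01 and 2.62, and GCLM, a subunit of the rate-limiting enzyme of glutathione synthesis, by 1.84 and 2.20. The genes called lower were CHAC2 in both fractions and GSS in GFP-positive cells. In GFP-positive cells CHAC2 was at -1.36, from a control mean of 1.85 CPM, and GSS at -1.02. Of 28 genes of amino acid sensing by mTORC1, 9 were called higher and 0 lower in each fraction. Beside both lists, 12.8% of all genes in GFP-positive and 8.59% in GFP-negative cells were called higher. Called lower were 1716 of 15333 and 1512 of 15513 genes. SESN2, the leucine sensor that restrains mTORC1, rose by 2.81 and 3.15, and DDIT4, another inhibitor of mTORC1, by 2.69 and 2.77. DDIT4 and CHAC1 had SDs of 97.7 and 72.1 CPM around means of 168 and 169 CPM in treated GFP-positive cells. In treated GFP-negative cells replicate 3 decided their level, since DDIT4 was at 170.3, 103.5 and 571 CPM and CHAC1 at 139, 79.6 and 425 CPM. Without that library the mean was 137 CPM for DDIT4 and 109 CPM for CHAC1, which is 3.38-fold and 5.78-fold the control mean.

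The genes whose level across the 12 libraries was most like each transporter were ranked by Pearson's r of log2 CPM over 13830 genes. These r values describe 12 libraries that share 2 treatments and 2 sort fractions, and are given with no test. SLC7A3 and SLC6A9 were each other's nearest gene (r = 0.996), and SLC6A9 was also among the 3 nearest of SLC7A5 (0.992) and SLC3A2 (0.993). SLC3A2 was nearest to SRPRA, the signal recognition particle receptor (0.996), and SLC7A5 to YARS1, the tyrosyl-tRNA synthetase (0.993). SLC1A5 was nearest to MTHFD1L and PHGDH, enzymes of mitochondrial folate metabolism and of serine synthesis (0.993 and 0.990). SLC7A11 was nearest to FIBIN, GDF15 and BTG1 (0.990 each), and GDF15, a secreted stress hormone, had the same order of groups, with means of 0.531, 5.51, 101 and 186 CPM in control GFP-positive, control GFP-negative, treated GFP-positive and treated GFP-negative cells. The nearest genes of SLC7A1, SLC1A4, SLC38A1 and SLC38A2 were MNT, COPA, MON2 and RIOK3, with r from 0.983 to 0.990.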

How the data were processed

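RNA was extracted with Trizol, and stranded mRNA libraries were sequenced as single reads. Per the labels, the authors aligned reads to hg38 with HISAT2 and counted them with featureCounts, and the deposited values are raw counts per gene. Versions and the strand setting of the counting are not given in the sources used here. Of the per-sample columns, 0 were left unused. Groups and replicate numbers came from the sample labels. A replicate in the study is a separate thaw of differentiated cells.

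Counts were tested with edgeR 4.0.16 in R 4.3.3, with TMM scaling, filterByExpr (minimum count 10, minimum total 15), the quasi-likelihood F-test and Benjamini-Hochberg adjustment over all genes tested. Calls needed an adjusted p under 0.05 and, except for the interaction, a fold change of at least 2. Only the groups compared entered each fit, and the interaction used all 12 libraries. The members and gene lists were chosen with earlier results of these data known. Named genes are all members, up to 3 called genes per list and treatment comparison with the largest change and a mean of at least 1 CPM, a fixed set, and for each member the 3 genes most like it (log2 of CPM plus 0.1). MYCN, ISL2, LHX3, LHX4, VIM, TUBB3, SNAP25, SYT1, ELAVL4, GSS and CHAC2 were named after their values were seen.

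Alternatives were library size alone, RLE scaling, a minimum of 10 counts in each library, testing without a filter, DESeq2 1.42.0, glmTreat, a fit of all 12 libraries, a replicate block, removal of the GC trend (loess, span 0.5), both together, and each library left out in turn. Exon lengths, positions and GC content came from GENCODE release 44 on hg38, with 25763 of 28278 symbols matched, and promoter windows from RefSeq. The fits of gene counts and the rule for calls were tested on simulated counts.

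Libraries of the 2 fractions that share treatment and number were taken as sorts of the same culture. Their deviations from the group means, over 16226 genes, correlated at 0.118 to 0.476, every pair above 0.1. The highest correlation with another number came close for control replicate 2 (0.0813 against 0.118) and treated replicate 1 (0.170 against 0.200). Total counts of 23414935 to 38347050 per library set the precision.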

Additional observations from a re-analysis of the deposited data

Results flagged for a closer look

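In the response to treatment, 2 of the 10 transporters differed between the sort fractions by the interaction test of edgeR. SLC7A11 rose more in GFP-positive cells by 1.57 on the log2 scale (SE 0.29, adjusted p = 0.012), from 0.817 ± 0.129 to 39.0 ± 7.05 CPM (SD, n = 3), against 5.13 ± 1.06 to 81.8 ± 5.25 CPM in GFP-negative cells. SLC1A5 rose more in GFP-positive cells by 1.04 (SE 0.21, adjusted p = 0.017), from 52.9 ± 6.60 to 477 ± 66.8 CPM, against 236 ± 27.7 to 1038 ± 5.28 CPM. Both genes were at a lower level in GFP-positive cells in control and in treated libraries, and the log2 difference was smaller after treatment. The control GFP-positive level of SLC7A11 rests on 19 to 30 counts in a library. Summed dividing, progenitor, mesenchymal and neuron markers also differed between the fractions, and their part was not tested.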

How the results depend on the processing

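The rise of the 10 transporters kept its direction in both fractions under every alternative run, and the call was lost only for SLC38A2 in GFP-positive cells under 4 of them and for SLC38A1 in GFP-negative cells under glmTreat, as given with those genes. With each library left out in turn, 9 to 10 members were called higher in GFP-positive and 10 in GFP-negative cells. The subunit ratios changed by -1.63 to -1.51 (SLC7A5 to SLC3A2) and 1.72 to 2.07 (SLC7A11 to SLC3A2) on the log2 scale in GFP-positive cells. SLC7A11 in control GFP-positive cells rests on 19 to 30 counts per library, and 3 libraries per group limit every comparison.

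Between the fractions of control cells, 3 members were called lower without any 1 library, and 0 to 1 were called higher, with 1 in the fit of all 12 libraries. In treated cells, 1 to 3 were called lower without 1 library, 0 with library size alone or glmTreat, and 1 with the GC trend removed, with or without the replicate block. SLC7A5, whose value there was not called, turned to 0.0704 with the GC trend removed and 0.0843 with the replicate block and GC removal. For the interaction, 1 to 2 members were called higher without 1 library, and 1 was called lower with the replicate block and GC removal.

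The sign of the interaction of members near 0 was not stable. That of SLC7A1 was 0.17 with library size alone, 0.0703 with at least 10 counts in every library, 0.00695 with the GC trend removed and 0.00805 with the block and GC removal, and -0.23 to 0.17 without 1 library. That of SLC3A2 was 0.0236 with RLE scaling, 0.22 with library size alone, 0.12 with at least 10 counts, 0.0240 with DESeq2, 0.0465 with GC removed, 0.0398 with the block and GC removal, and -0.20 to 0.17 without 1 library. That of SLC38A1 was 0.0272 with RLE scaling, 0.24 with library size alone, 0.12 with at least 10 counts, 0.0277 with DESeq2, and -0.29 to 0.23 without 1 library. That of SLC7A5 was -0.00675 with no filter and -0.11 to 0.26 without 1 library, and that of SLC6A9 -0.0501 to 0.37 without 1 library. Library size alone moved the median of all genes by 0.26 in the interaction, 0.17 between the treated fractions and 0.11 in GFP-positive cells, and GC removal moved it by 0.16 between the control fractions.

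Over all genes, glmTreat called 920 higher and 728 lower in GFP-positive cells (1959 and 1716 without it), 446 and 366 in GFP-negative cells (1332 and 1512), 295 and 1408 between the control fractions (1151 and 2355) and 390 and 1170 between the treated fractions (1541 and 2117). The block with GC removal called 1829 higher between the control fractions and left 2046 lower, and library size alone called 2230 higher and 1770 lower between the treated fractions. The interaction called 157 genes higher and 198 lower, 171 and 145 with RLE scaling, 266 and 84 with library size alone, 233 and 105 with at least 10 counts, 407 and 391 with DESeq2, 519 and 745 with the replicate block, 550 and 598 with the block and GC removal, and 68 to 212 higher and 47 to 202 lower without 1 library. Treated and control libraries with the same number correlated at -0.04 to 0.30. Whether such libraries share more than the number, such as a thaw, is not given in the labels. The replicate block alone changed no member's call in any comparison, and left 1944 and 1708 genes called in GFP-positive and 1288 and 1406 in GFP-negative cells. The cause of these shifts was not tested.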

Other observations

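SLC38A1 and SLC38A2, which lie on chromosome 12 at 46183063 to 46270017 and 46358188 to 46372773 (hg38, both on the minus strand), were both highest in replicate 3 in control GFP-positive, treated GFP-positive and control GFP-negative cells. In treated GFP-negative cells SLC38A2 was highest in replicate 3, at 193 CPM, and SLC38A1 was lowest there, at 302 CPM. MAPK6 and RIOK3, which lie on other chromosomes and are among the genes most like SLC38A2, were highest in replicate 3 in all 4 groups. In treated GFP-negative cells MAPK6 was so only by 160.0 against 159.3 CPM in replicate 2. MTDH, also among the 3 genes most like SLC38A2, was highest there in replicate 1, at 93.8 against 92.1 CPM in replicate 3. In the other groups MTDH was highest in replicate 3. This was seen after the values were known and was not tested.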
